A study of Arabidopsis thaliana with 24 samples.

Results

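Tau and phi glutathione S-transferases were described by the RNA of their genes in shoots of Arabidopsis thaliana. The members were the loci GSTU1 to GSTU28 of the tau class and GSTF2 to GSTF14 of the phi class, taken by locus from the gene count table, which gave 41 of its 33602 loci, 28 tau and 13 phi. Seedlings of Columbia-0 background were 3 weeks old and had 1 of 4 genotypes: wild type (Col-0), the mutant cat2, the mutant shr, or the double mutant cat2shr. The mutants carry defects in CATALASE2 and SHORT-ROOT, and the labels give no allele names. Plants grew for 21 days on MS agar with 1% sucrose at 21 °C, with 16 h of light at 100 µmol m-2 s-1 and 8 h of dark. Shoots were taken at 0 h, or after 24 h in plates closed with Parafilm under continuous light, which limits gas exchange and promotes photorespiration. Each of the 8 groups had 3 libraries, 24 in all, and the labels do not say whether these came from separate plants. By its title, the series concerns cell death in the catalase mutant with and without SHORT-ROOT. No group was kept unstressed for 24 h, so closed plates, continuous light and elapsed time cannot be told apart.

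Glutathione S-transferases join the tripeptide glutathione to electrophilic compounds, which are then moved into the vacuole, or reduce organic peroxides with it. The tau and phi classes are the large plant classes of the family, and many of their genes respond to hydrogen peroxide, salicylic acid and xenobiotics. Such genes have long served as markers of oxidative stress in leaves. Part of the response to xenobiotics runs through TGA transcription factors, which bind the as-1 element with its core TGACG. CATALASE2 removes the hydrogen peroxide that photorespiration forms in leaf peroxisomes.

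Depth was between 26.43 and 40.11 M counts in a library. Levels are given as counts per M counts (CPM) of a library after trimmed mean of M-values (TMM) scaling, and values of a group are listed in the order of replicates 1, 2 and 3. CAT2 (AT4G35090) lay between 13.1 and 32.5 CPM in the 12 libraries of cat2 and cat2shr and between 126 and 1086 CPM in the other libraries. SHR (AT4G37650) lay between 0.429 and 1.07 CPM in the libraries of shr and cat2shr and between 4.41 and 10.8 CPM in the others. The 7 shoot markers, genes of light harvesting and carbon fixation, summed to group means from 12210 to 33210 CPM, and the 9 root markers to group means from 66.7 to 162 CPM. Of the root markers, 3 of 9 passed the filter on low counts. The root sums were highest in shr at 0 h (mean 162 CPM) and lowest in shr at 24 h (mean 66.7 CPM). Under stress, 1, 1, 2 and 2 of the 3 were called lower in Col-0, cat2, shr and cat2shr. The largest fall in shr was log2 -7.20, and 1 of the 3 rose in cat2 (38.7% of all genes). In shr against Col-0 at 0 h, 1 of the 3 was called higher (log2 7.12), where 21.3% of all genes were higher. Of the 7 shoot markers, 4, 7, 5 and 6 were called lower with stress in Col-0, cat2, shr and cat2shr. Over all genes, 29.6%, 36.3%, 20.9% and 31.7% were called lower in these comparisons. The part of the shoot and root markers in the results on glutathione S-transferases was not tested. In such bulk samples, fewer cells of a type and less RNA per cell cannot be told apart. In shr replicate 1 at 0 h, 1172 genes lay over 2-fold from the mean of the other libraries of its group. In that library the median log2 distance from the other libraries was -0.495 over the tau members and -0.644 over the phi members. Of the cat2shr libraries at 0 h, replicate 1 had 1021 such genes and replicate 3 had 927, with a median log2 distance over the phi members of 0.552 and -0.594. Results at 0 h are therefore also given without single libraries, and without shr replicate 1 and cat2shr replicate 1 together, the libraries with the most such genes. In Col-0 replicate 2 at 24 h the median log2 distance was 0.415 over the tau members and -0.016 over the phi members.

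Of the 41 members, 36 passed the filter on low counts, 25 tau and 11 phi. The 5 that did not pass are GSTU14, GSTU15, GSTU21, GSTF5 and GSTF13. Their highest group means were 0.183 CPM for GSTU14, 0.235 CPM for GSTU15, 0.0230 CPM for GSTU21, 0.363 CPM for GSTF5 and 0.353 CPM for GSTF13. They were at or near 0 in every group, and no test was made on them.

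The start regions of 8 members are shown because these genes moved together or apart in the comparisons that follow and because the as-1 core is a known response element of the family. Each sequence holds the 250 bases before the annotated gene start, 5′ to 3′ on the strand of the gene, from the RefSeq annotation of build TAIR10.1. Capitals mark TGACG or, for a match on the other strand, CGTCA. All 41 members had such a window.
GSTU7: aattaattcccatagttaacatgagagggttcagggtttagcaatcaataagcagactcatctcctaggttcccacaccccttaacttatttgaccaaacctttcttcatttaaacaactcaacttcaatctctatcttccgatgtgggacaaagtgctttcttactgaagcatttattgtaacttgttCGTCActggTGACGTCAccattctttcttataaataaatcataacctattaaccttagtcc
GSTU1: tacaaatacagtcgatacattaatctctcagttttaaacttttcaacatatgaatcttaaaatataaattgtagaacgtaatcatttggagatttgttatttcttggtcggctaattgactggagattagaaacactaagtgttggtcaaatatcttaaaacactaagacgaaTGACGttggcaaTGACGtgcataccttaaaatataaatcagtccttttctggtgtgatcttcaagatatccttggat
GSTU22: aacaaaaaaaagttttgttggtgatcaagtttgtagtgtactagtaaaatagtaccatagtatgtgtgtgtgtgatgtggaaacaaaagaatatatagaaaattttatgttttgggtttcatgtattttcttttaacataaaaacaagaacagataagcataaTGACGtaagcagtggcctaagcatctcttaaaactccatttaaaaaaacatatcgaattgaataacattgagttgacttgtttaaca
GSTU25: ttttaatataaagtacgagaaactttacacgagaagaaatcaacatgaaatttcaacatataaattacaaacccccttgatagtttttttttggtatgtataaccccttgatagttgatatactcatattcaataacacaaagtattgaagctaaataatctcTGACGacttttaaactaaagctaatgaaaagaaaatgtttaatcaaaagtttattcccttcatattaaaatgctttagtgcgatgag
GSTU24: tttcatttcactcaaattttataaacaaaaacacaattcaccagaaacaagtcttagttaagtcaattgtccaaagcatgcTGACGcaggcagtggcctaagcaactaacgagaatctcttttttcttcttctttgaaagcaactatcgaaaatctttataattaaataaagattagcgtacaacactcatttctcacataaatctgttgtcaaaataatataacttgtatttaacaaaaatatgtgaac
GSTF8: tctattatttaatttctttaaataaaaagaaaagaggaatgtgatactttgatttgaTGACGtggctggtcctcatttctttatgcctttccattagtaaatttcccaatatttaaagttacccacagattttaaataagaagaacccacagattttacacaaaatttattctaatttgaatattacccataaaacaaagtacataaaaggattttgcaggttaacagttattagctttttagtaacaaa
GSTF2: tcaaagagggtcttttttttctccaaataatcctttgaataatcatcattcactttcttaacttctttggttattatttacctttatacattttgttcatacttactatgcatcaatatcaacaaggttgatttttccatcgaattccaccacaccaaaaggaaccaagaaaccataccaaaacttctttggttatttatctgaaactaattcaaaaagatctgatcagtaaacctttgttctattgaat
GSTU20: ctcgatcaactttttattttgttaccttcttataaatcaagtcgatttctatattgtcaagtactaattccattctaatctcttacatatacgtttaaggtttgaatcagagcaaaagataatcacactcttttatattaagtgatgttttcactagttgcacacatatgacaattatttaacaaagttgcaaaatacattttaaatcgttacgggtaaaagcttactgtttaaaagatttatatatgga

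These windows lie on the minus strand at chr2:12618900-12619149 for GSTU7, chr2:12632539-12632788 for GSTU1, chr1:29474004-29474253 for GSTU22, chr4:1112034-1112283 for GSTF2 and chr1:29485390-29485639 for GSTU20. They lie on the plus strand at chr1:5871774-5872023 for GSTU25, chr1:5869293-5869542 for GSTU24 and chr2:19556076-19556325 for GSTF8. The window of GSTU7 held 3 matches, at 61, 52 and 49 bases before the start, and the last 2 overlap on opposite strands. GSTU1 held 2 matches, at 77 and 65 bases before the start. GSTU22 and GSTU25 each held 1 match 87 bases before the start. GSTU24 held 1 match 169 bases before the start, and GSTF8 1 match 193 bases before it. The letters TGACG were not in the windows of GSTF2 and GSTU20. On either strand, TGACG stood in the windows of 11 of 28 tau members (39.3%), 3 of 13 phi members (23.1%) and 4971 of 26711 protein-coding genes of the count table (18.6%). At least 2 matches stood in 3 tau members (GSTU1, GSTU7 and GSTU9, 10.7%), in 0 of 13 phi members and in 3.23% of all genes. TTGAC, the core of the W-box that WRKY factors bind, stood in 60.7% of tau members, 53.8% of phi members and 45.0% of all genes, and TTGACG holds both motifs. CACGTG, the G-box, stood in 7.14%, 7.69% and 6.58%. Under stress in Col-0, TGACG stood in the windows of 8 of 18 members called higher, 1 of 8 called lower and 5 of 10 not called. In cat2 these counts were 11 of 24, 2 of 7 and 1 of 5. The 8 windows shown were picked, and a link between the motif and the calls was not tested. These matches describe the windows and are not sites of measured binding.

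Summed over all members of a class, transcripts of both classes were lowest in Col-0 at 0 h, and the highest sums were in stressed cat2shr for tau and in stressed cat2 for phi. Tau transcripts summed to 848, 802 and 745 CPM for Col-0 at 0 h, 1403, 1527 and 1185 for cat2, 1284, 1574 and 1168 for shr, and 1330, 1968 and 1262 for cat2shr. At 24 h the tau sums were 951, 1766 and 929 CPM for Col-0, 4504, 5088 and 3886 for cat2, 1733, 1655 and 1396 for shr, and 6419, 8110 and 6073 for cat2shr. Every cat2shr library at 24 h thus lay above every cat2 library, and all 6 lay above the rest. Phi transcripts summed to 1007, 973 and 921 CPM for Col-0 at 0 h, 1383, 1485 and 1215 for cat2, 2099, 2365 and 2325 for shr, and 2809, 1988 and 1611 for cat2shr. At 24 h the phi sums were 3156, 3788 and 2806 CPM for Col-0, 7436, 8543 and 5345 for cat2, 4427, 3655 and 3938 for shr, and 6520, 6113 and 4594 for cat2shr. Unlike the tau sums, the phi sums of cat2 and cat2shr overlapped at 24 h.

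**Figure D1:**
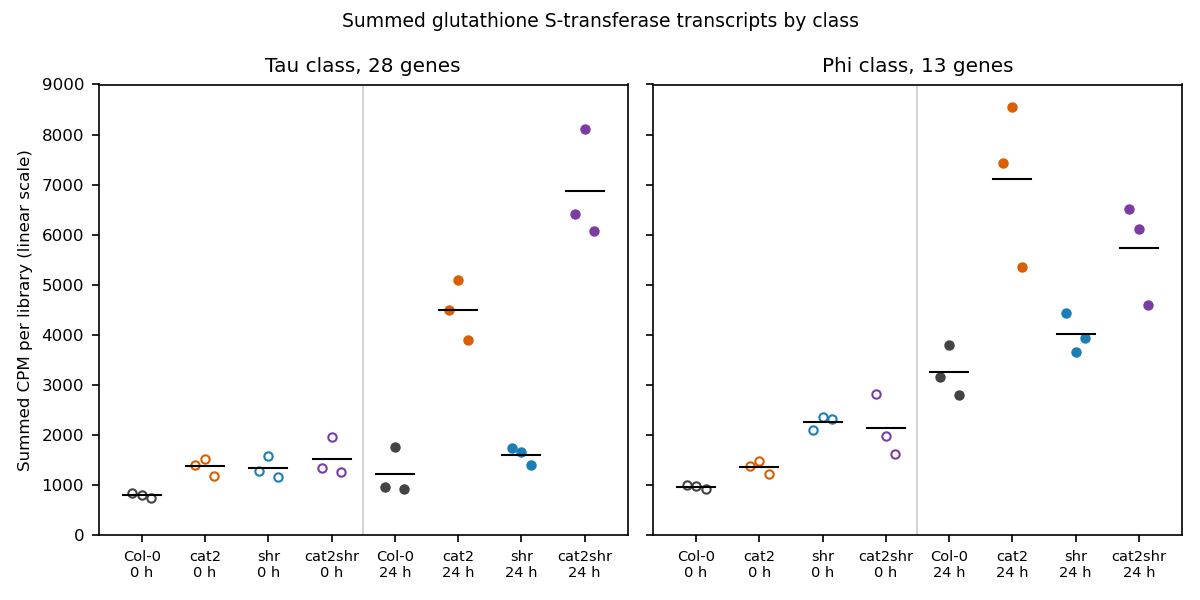
Summed CPM of the 28 tau genes (left) and the 13 phi genes (right) in each library, on a linear axis; open circles are 0 h, filled circles 24 h, and lines are means of 3 libraries. Tau sums at 24 h were highest in cat2shr (mean 6867) and phi sums in cat2 (mean 7108).

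The tau sum in cat2shr at 24 h had a mean of 6867 ± 1090 CPM (SD, n = 3), 1.53 times the 4493 ± 601 CPM of cat2. The phi sum was 5742 ± 1015 CPM in cat2shr and 7108 ± 1624 CPM in cat2, a ratio of 0.808. The tau share of both classes together was 54.5% ± 4.25 (SD, n = 3) in cat2shr and 39.0% ± 2.65 in cat2 at 24 h, with libraries from 49.6% to 57.0% and from 37.3% to 42.1%. In Col-0 the tau share went from 45.2% ± 0.501 at 0 h to 26.6% ± 4.57 at 24 h, in cat2 from 50.1% ± 0.687 to 39.0% ± 2.65, and in shr from 37.1% ± 3.34 to 28.5% ± 2.52. In cat2shr the mean went up, from 41.9% ± 8.97 at 0 h, although the libraries at 0 h spanned 32.1% to 49.7%. No test is given for these sums. The ratio of the mean tau sums in Col-0, 24 h over 0 h, was 1.52, and 1.18 without Col-0 replicate 2 at 24 h.

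A few members carried each class. Per kb of coding length, GSTF2 had the highest mean level over all libraries (2277 CPM per kb), followed by GSTU19 (1924), GSTF9 (881), GSTF8 (591), GSTF10 (489), GSTF6 (454), GSTF7 (381) and GSTU24 (355). At the other end of the members that passed, GSTF14 had 0.277 CPM per kb and GSTU12 0.546. GSTU19 (AT1G78380), which has high activity toward the model substrate CDNB, held between 45.1% and 58.9% of the tau transcripts in each group. It measured 399.9, 406 and 346 CPM for Col-0, 688, 683 and 526 for cat2, 635, 653 and 529.6 for shr and 672, 944 and 577 for cat2shr at 0 h. Its values at 24 h were 497, 1017 and 514 CPM for Col-0, 2252, 2535 and 2054 for cat2, 901, 819 and 699 for shr and 3682, 4908 and 3541 for cat2shr. Its libraries of cat2shr at 24 h did not overlap those of cat2, which in turn lay above all others. GSTF9 (AT2G30860), an enzyme with glutathione peroxidase activity, had the highest mean of the phi class at 0 h, with shares of 63.5% for Col-0, 46.4% for cat2, 32.2% for shr and 28.7% for cat2shr. In cat2shr GSTF2 was close behind with 28.1%. GSTF2 lay above GSTF9 in shr replicate 3 and cat2shr replicate 1, and the order of both means turned in shr without replicate 1 and in cat2shr without replicate 2 or 3. GSTF9 measured 688, 620.0 and 535 CPM for Col-0, 700.1, 611 and 583 for cat2, 867, 747 and 571 for shr and 819.7, 566 and 451 for cat2shr at 0 h. It measured 515, 399 and 367 CPM for Col-0, 488, 484 and 349.8 for cat2, 734, 593 and 594 for shr and 541, 481 and 400.2 for cat2shr at 24 h. GSTF9 thus stayed between 349.8 and 867 CPM over all libraries. GSTF2 led the phi class at 24 h in each genotype, with 45.1% to 56.9%.

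**Figure D2:**
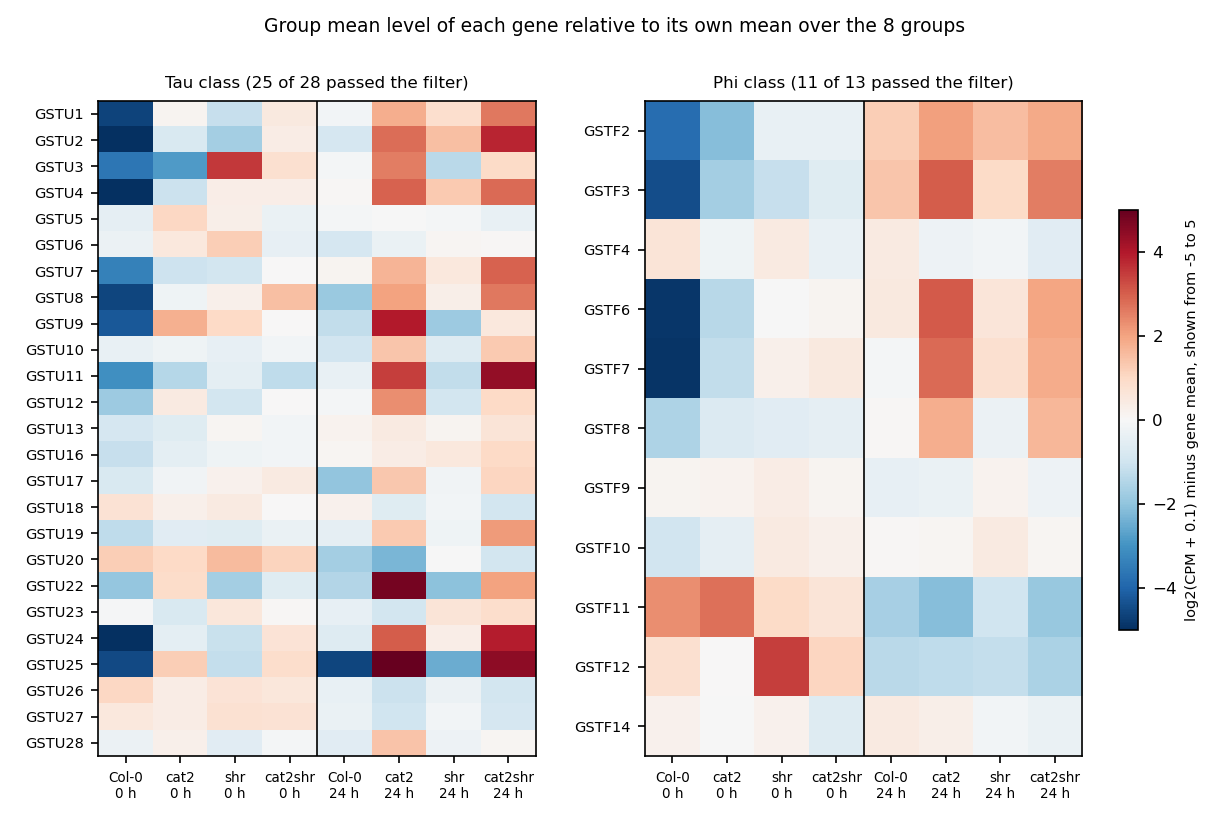
Group means as log2(CPM + 0.1) for the 36 genes that passed the filter, each relative to its own mean over the 8 groups, with tau genes left and phi genes right; red is above and blue below that mean, and colours end at 5 log2 units. Col-0 at 0 h held the lowest mean of 20 of the 36 genes.

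For 20 of the 36 members that passed, 14 tau and 6 phi, the lowest group mean lay in Col-0 at 0 h, where 19.1% of all 20347 genes tested had their lowest mean in that group. For 17 of these all 3 Col-0 libraries at 0 h lay below the other 21 libraries, which held for 6.08% of all genes. They are the tau members GSTU1, GSTU2, GSTU4, GSTU7, GSTU8, GSTU9, GSTU11, GSTU13, GSTU16, GSTU19 and GSTU24 and the phi members GSTF2, GSTF3, GSTF6, GSTF7, GSTF8 and GSTF10. The highest group mean lay in cat2 at 24 h for 8 tau and 5 phi members (26.1% of all genes). It lay in cat2shr at 24 h for 10 tau members and for none of the phi members (12.9% of all genes).

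In Col-0, stress raised part of the phi class and part of the tau class, while a smaller set fell. GSTF2 went from a mean of 54.9 CPM to the highest mean of the phi class (1848 CPM). Of the other phi genes that rose, GSTF10 and GSTF8 already followed GSTF9 in level at 0 h (means 156.8 and 119.2 CPM). Differences were tested with the quasi-likelihood test of edgeR over all genes and a gene was called where its p, adjusted by Benjamini-Hochberg, lay under 0.05. Of the tested members, 12 of 25 tau genes rose and 5 fell, and 6 of 11 phi genes rose and 3 fell, where 29.7% of all genes rose and 29.6% fell. The median log2 change was 0.91 over the tau genes, 1.01 over the phi genes and 0.00 over all genes.

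GSTF2 (AT4G02520), which binds indole compounds such as camalexin as well as flavonoids, measured 44.4, 55.3 and 64.8 CPM for Col-0, 159, 242 and 131 for cat2, 431, 591 and 768 for shr and 955, 475 and 369 for cat2shr at 0 h. After stress it stood at 1704, 2201 and 1639 CPM for Col-0, 3328, 4056 and 2230 for cat2, 2476, 2026 and 2263 for shr and 3522, 3003 and 2187 for cat2shr. The libraries of Col-0 did not overlap between the times, and GSTF2 rose (log2 5.07 with SE 0.38, adjusted p = 3.94e-09). GSTF6 (AT1G02930), which joins glutathione to an intermediate of camalexin synthesis, measured 4.39, 3.43 and 4.88 CPM for Col-0, 41.5, 78.5 and 27.98 for cat2, 72.8, 164 and 143 for shr and 175, 144 and 98.7 for cat2shr at 0 h. The 24 h libraries had 161, 221 and 151 CPM for Col-0, 1151, 1242 and 854 for cat2, 209.7, 172 and 199 for shr and 566, 539 and 408 for cat2shr. It also rose in Col-0 with no overlap (log2 5.39 with SE 0.40, adjusted p = 5.09e-09), and so did GSTF7 (log2 4.87 with SE 0.48, adjusted p = 1.45e-07). GSTF8 (AT2G47730), long used as a marker of early stress responses, measured 109, 124 and 124 CPM for Col-0, 209, 243 and 190.3 for cat2, 152, 242 and 301 for shr and 197, 317 and 235 for cat2shr at 0 h. Levels after 24 h were 283, 508 and 279.9 CPM for Col-0, 1233, 1359 and 1006 for cat2, 282, 275 and 288 for shr and 1005, 1305 and 974 for cat2shr. Its rise in Col-0 was smaller (log2 1.58 with SE 0.24, adjusted p = 1.72e-05), and Col-0 replicate 2 stood above the other Col-0 libraries at 24 h. GSTF10, known as ERD13 from its response to dehydration, rose as well (log2 1.01 with SE 0.14, adjusted p = 4.93e-06).

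Among the tau genes that rose in Col-0, GSTU16 (AT1G59700) had the smallest adjusted p and a small change (log2 1.24 with SE 0.14, adjusted p = 2.69e-07). It measured 18.4, 19.6 and 16.8 CPM for Col-0, 26.9, 33.8 and 26.8 for cat2, 34.8, 40.3 and 29.2 for shr and 33.0, 42.9 and 35.0 for cat2shr at 0 h. Under stress it reached 38.0, 51.8 and 39.7 CPM for Col-0, 52.5, 57.6 and 49.7 for cat2, 55.6, 54.4 and 65.9 for shr and 77.2, 83.2 and 82.1 for cat2shr. All Col-0 libraries at 24 h lay above those at 0 h. GSTU4 (AT2G29460) measured 0.194, 0.140 and 0.310 CPM for Col-0, 11.4, 23.9 and 11.5 for cat2, 10.3, 77.8 and 36.0 for shr and 41.5, 54.2 and 29.9 for cat2shr at 0 h. At 24 h it measured 21.4, 60.6 and 22.7 CPM for Col-0, 247, 324 and 192 for cat2, 91.4, 91.2 and 64.2 for shr and 259.9, 279.9 and 173 for cat2shr. In Col-0 it rose from the lowest level of all groups (log2 7.34 with SE 0.90, adjusted p = 1.75e-06). GSTU24 (AT1G17170), an enzyme that can join glutathione to the explosive TNT, measured 1.55, 1.16 and 0.698 CPM for Col-0, 49.5, 56.0 and 36.6 for cat2, 17.8, 35.5 and 38.0 for shr and 37.8, 189 and 93.9 for cat2shr at 0 h. Its values at 24 h were 15.6, 92.3 and 18.1 CPM for Col-0, 562, 622 and 453 for cat2, 92.4, 96.5 and 58.7 for shr and 933, 1215 and 878 for cat2shr. It rose in Col-0 (log2 5.18 with SE 0.76, adjusted p = 1.28e-05), with replicate 2 at 24 h far above the other libraries. GSTU1 also rose (log2 4.56 with SE 0.58, adjusted p = 2.57e-06), as did GSTU7, whose loss is known to make plants more sensitive to methyl viologen (log2 3.55 with SE 0.44, adjusted p = 1.9e-06). GSTU13, an enzyme of indole glucosinolate metabolism in pathogen defence (log2 1.02 with SE 0.19, adjusted p = 0.00018), and GSTU19 (log2 0.82 with SE 0.23, adjusted p = 0.00473) rose by smaller steps. Fitted on the Col-0 libraries alone, GSTU19 was not called (adjusted p = 0.0582).

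Some of these calls rested on single libraries or on very low counts. GSTU2 (log2 5.03 with SE 1.26, adjusted p = 0.00218) and GSTU8 (log2 3.04 with SE 0.81, adjusted p = 0.00361) were not called without Col-0 replicate 2 at 24 h (adjusted p = 0.0525 and 0.0514). GSTU9 was lost without any one of 4 libraries (highest adjusted p = 0.106), GSTU12 without any one of 3 (0.0566), GSTU17 without any one of 4 (0.111) and GSTF9 without any one of 4 (0.156). GSTU11 and GSTU12 had 0 counts in the Col-0 libraries at 0 h. Against a floor of 3 counts over the group, they were at least 15.3-fold and at least 6.58-fold higher at 24 h, while their fitted log2 changes depend on the prior count. GSTU9 had 2 counts in Col-0 at 0 h and 71 at 24 h, a ratio of 38.9 (95% exact interval 10.4 to 327, counting error only).

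Fewer members fell in Col-0, and most of them also fell elsewhere. GSTU20 (AT1G78370), which takes part in light signalling as a partner of FIN219 and in glucosinolate synthesis, measured 175, 148 and 122 CPM for Col-0, 151, 121 and 103 for cat2, 210.5, 200.1 and 145 for shr and 146, 156 and 105 for cat2shr at 0 h. After stress it stood at 24.3, 14.4 and 18.1 CPM for Col-0, 10.9, 11.8 and 15.4 for cat2, 63.1, 57.4 and 63.7 for shr and 27.7, 24.9 and 46.6 for cat2shr. It fell in Col-0 with no overlap (log2 -2.97 with SE 0.26, adjusted p = 2.53e-08). GSTU26 (AT1G17190) measured 9.10, 10.02 and 8.68 CPM for Col-0, 6.14, 5.33 and 5.95 for cat2, 8.96, 6.82 and 5.81 for shr and 7.39, 5.29 and 6.90 for cat2shr at 0 h. The 24 h libraries had 3.503, 3.02 and 3.57 CPM for Col-0, 1.62, 1.78 and 2.68 for cat2, 3.45, 3.40 and 3.92 for shr and 2.01, 2.44 and 2.49 for cat2shr. It fell in Col-0 too (log2 -1.46 with SE 0.18, adjusted p = 8.43e-07). GSTF11 (AT3G03190), linked to the synthesis of aliphatic glucosinolates, measured 9.46, 7.32 and 7.44 CPM for Col-0, 12.0, 12.3 and 8.54 for cat2, 2.17, 4.79 and 2.04 for shr and 2.17, 2.17 and 2.92 for cat2shr at 0 h. Levels after 24 h were 0.442, 0.348 and 0.442 CPM for Col-0, 0.138, 0.581 and 0.0855 for cat2, 0.749, 0.892 and 0.475 for shr and 0.106, 0.265 and 0.643 for cat2shr. The 24 h libraries of each genotype lay below its 0 h libraries, and the fall was called in Col-0 (log2 -4.28 with SE 0.48, adjusted p = 3.88e-07). GSTF12 (AT5G17220), the TRANSPARENT TESTA19 protein that carries anthocyanins toward the vacuole, measured 2.71, 1.89 and 1.71 CPM for Col-0, 1.34, 1.08 and 1.09 for cat2, 22.4, 13.7 and 4.74 for shr and 4.31, 2.54 and 0.858 for cat2shr at 0 h. Under stress it reached 0.922, 0.232 and 0.0401 CPM for Col-0, 0.413, 0.410 and 0.427 for cat2, 0.456, 0.549 and 0.348 for shr and 0.318, 0.0882 and 0.563 for cat2shr. The shr libraries at 0 h were the highest, and the fall in Col-0 was called (log2 -2.36 with SE 0.73, adjusted p = 0.00935). GSTU18 and GSTU27 fell as well, by smaller steps (log2 -0.50 with SE 0.14, adjusted p = 0.00418 for GSTU18; log2 -0.85 with SE 0.22, adjusted p = 0.00226 for GSTU27).

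In cat2, where peroxide removal is impaired, stress raised 24 members, 18 of 25 tau and 6 of 11 phi, and 5 tau and 2 phi members fell. Over all genes, 38.7% rose and 36.3% fell. The median log2 change was 1.68 over the tau genes, 0.52 over the phi genes and 0.03 over all genes. GSTU22 (AT1G78340) measured 0.0323, 0.0701 and 0.194 CPM for Col-0, 0.436, 2.63 and 0.991 for cat2, 0.204, 0.130 and 0.0827 for shr and 0.227, 0.435 and 0.549 for cat2shr at 0 h. At 24 h it measured 0.111, 0.271 and 0.161 CPM for Col-0, 20.9, 21.3 and 22.0 for cat2, 0, 0.103 and 0.158 for shr and 2.25, 2.97 and 3.86 for cat2shr. The cat2 libraries at 24 h lay close together and far above all others, and GSTU22 rose (log2 3.98 with SE 0.42, adjusted p = 5.85e-08). GSTU25 (AT1G17180), another enzyme that can act on TNT, measured 0.161, 0.245 and 0.0775 CPM for Col-0, 6.87, 27.1 and 8.67 for cat2, 0.883, 2.19 and 4.57 for shr and 0.551, 15.9 and 16.4 for cat2shr at 0 h. Its values at 24 h were 0.0737, 0.387 and 0 CPM for Col-0, 464, 524 and 350.0 for cat2, 0.717, 0.857 and 1.33 for shr and 102, 142 and 152 for cat2shr. It rose in cat2 (log2 4.97 with SE 0.72, adjusted p = 5.58e-06), while the Col-0 and shr libraries at 24 h reached at most 1.33 CPM.

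GSTU19 rose in cat2 (log2 1.85 with SE 0.23, adjusted p = 7.16e-07), and so did GSTF2 (log2 4.18 with SE 0.36, adjusted p = 5.35e-09), GSTF6 (log2 4.46 with SE 0.37, adjusted p = 4.01e-09) and GSTF8 (log2 2.49 with SE 0.25, adjusted p = 3.49e-08). GSTF3 (AT2G02930) measured 0.129, 0.0350 and 0.0775 CPM for Col-0, 1.01, 1.48 and 0.832 for cat2, 1.05, 2.00 and 1.93 for shr and 3.28, 2.90 and 1.30 for cat2shr at 0 h. After stress it stood at 7.19, 12.1 and 11.04 CPM for Col-0, 30.3, 45.5 and 18.8 for cat2, 9.15, 5.52 and 7.75 for shr and 29.5, 23.8 and 15.3 for cat2shr. It rose in Col-0 (log2 6.88 with SE 0.62, adjusted p = 3.35e-08) and in cat2 (log2 4.83 with SE 0.41, adjusted p = 4.94e-09), with both fits made beside a near-identical gene at far higher counts. GSTU11 (AT1G69930) measured 0, 0 and 0 CPM for Col-0, 0.235, 0.169 and 0.224 for cat2, 0.0679, 0.859 and 0.551 for shr and 0.195, 0.217 and 0.309 for cat2shr at 0 h. The 24 h libraries had 0.111, 1.01 and 0.522 CPM for Col-0, 8.13, 14.0 and 4.53 for cat2, 0.293, 0.206 and 0.253 for shr and 17.5, 23.1 and 10.8 for cat2shr. Its rise in cat2 was called (log2 5.38 with SE 0.64, adjusted p = 8.74e-07), and the libraries other than those of stressed cat2 and cat2shr reached at most 1.01 CPM. GSTU5 (AT2G29450), an auxin-responsive member, fell in cat2, as did GSTU20, and both were among the abundant tau genes at 0 h. It measured 91.2, 72.3 and 102 CPM for Col-0, 216, 297 and 232 for cat2, 119, 225 and 101 for shr and 108, 97.0 and 87.6 for cat2shr at 0 h. Levels after 24 h were 127, 116 and 98.5 CPM for Col-0, 131, 128 and 100.5 for cat2, 107, 121 and 117 for shr and 91.01, 107 and 87.2 for cat2shr. Its cat2 libraries at 0 h were high, apart from an overlap with shr replicate 2, and it fell in cat2 under stress (log2 -1.05 with SE 0.22, adjusted p = 0.000258). The other members that fell in cat2 were GSTU18 (log2 -0.87), GSTU20 (log2 -3.30), GSTU26 (log2 -1.51), GSTU27 (log2 -1.39), GSTF9 (log2 -0.52) and GSTF11 (log2 -5.37). GSTF9 was not called without cat2 replicate 1 at 0 h or replicate 3 at 24 h (highest adjusted p = 0.124), and GSTU12, which rose (log2 2.14 with SE 0.73, adjusted p = 0.0133), was lost without any one of 3 libraries (highest adjusted p = 0.0681).

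**Figure D3:**
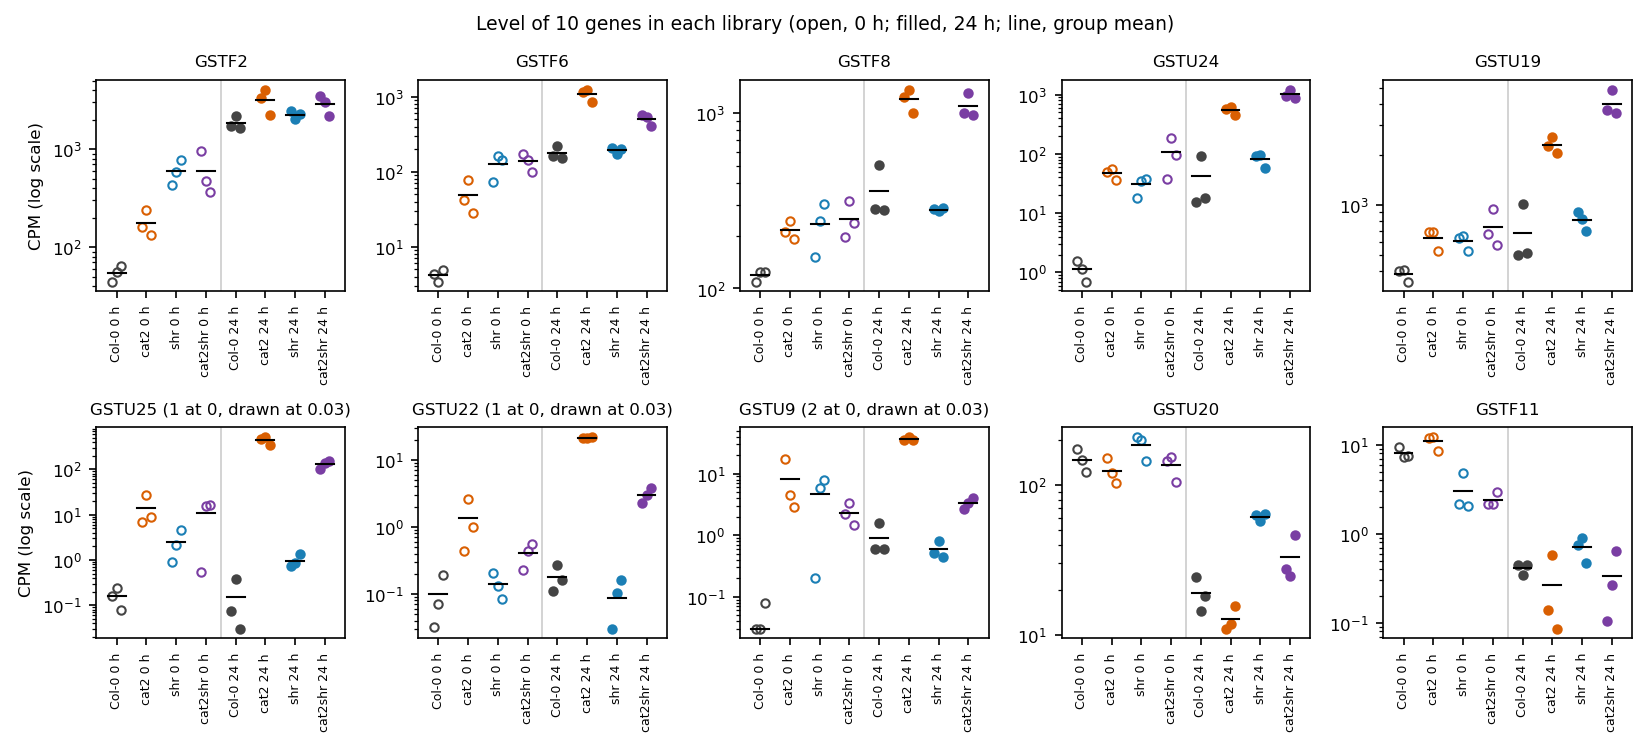
CPM of 10 genes in each library on log axes that differ between panels, with open circles for 0 h, filled circles for 24 h and lines for group means; libraries at 0 are drawn at 0.03 CPM. GSTU22 and GSTU25 were high in cat2 at 24 h (at least 20.9 and 350.0 CPM in every library) and GSTU19 and GSTU24 highest in cat2shr at 24 h.

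In shr, 15 members were called under stress. Of the tau genes 4 of 25 rose and 6 fell, and of the phi genes 2 of 11 rose and 3 fell, where 20.4% of all genes rose and 20.9% fell. The split of 6 higher and 9 lower was 9 and 9 with the replicate block, 8 and 7 with only the shr libraries fitted, 7 and 7 with the 5 CPM filter and 7 and 8 with library size only. The members that rose were GSTF2 (log2 1.92 with SE 0.33, adjusted p = 0.00016), GSTF3 (log2 2.15 with SE 0.38, adjusted p = 0.000241), GSTU16 (log2 0.75 with SE 0.13, adjusted p = 0.000174), GSTU1, GSTU2 and GSTU7. GSTU2 (AT2G29480) measured 0.129, 0.245 and 0.0388 CPM for Col-0, 4.36, 5.53 and 5.41 for cat2, 1.63, 2.94 and 3.25 for shr and 2.72, 22.1 and 8.21 for cat2shr at 0 h. Under stress it reached 1.03, 11.9 and 1.25 CPM for Col-0, 61.4, 70.9 and 50.5 for cat2, 27.4, 30.9 and 14.6 for shr and 109, 144 and 116 for cat2shr. Its rise in shr was called (log2 3.20 with SE 0.71, adjusted p = 0.00165). GSTU1 (AT2G29490) measured 2.19, 2.66 and 1.28 CPM for Col-0, 53.4, 73.5 and 51.2 for cat2, 19.1, 29.3 and 23.1 for shr and 33.8, 122 and 69.0 for cat2shr at 0 h. At 24 h it measured 24.4, 97.7 and 24.4 CPM for Col-0, 188, 212 and 170.3 for cat2, 102, 112 and 70.0 for shr and 343, 364 and 297 for cat2shr. It rose in shr as well (log2 1.99 with SE 0.47, adjusted p = 0.00264). The falls in shr included GSTU20 (log2 -1.59 with SE 0.24, adjusted p = 5.16e-05), GSTU26 (log2 -0.999 with SE 0.17, adjusted p = 0.00016), GSTF11 (log2 -2.10 with SE 0.44, adjusted p = 0.000946) and GSTF12 (log2 -4.90 with SE 0.68, adjusted p = 1.88e-05).

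GSTU3 and GSTU9 were called lower in shr under stress, but their libraries overlapped between the times. GSTU3 (AT2G29470) measured 0.0323, 0 and 0 CPM for Col-0, 0.101, 0.169 and 0 for cat2, 0.0340, 21.8 and 25.7 for shr and 3.503, 3.26 and 0.0343 for cat2shr at 0 h. Its values at 24 h were 1.07, 1.24 and 1.21 CPM for Col-0, 8.37, 12.8 and 2.76 for cat2, 0.228, 0.206 and 0.886 for shr and 2.38, 3.23 and 1.90 for cat2shr. Its level was near 0 in shr replicate 1 and cat2shr replicate 3 at 0 h and high in the other shr libraries. GSTU9 (AT5G62480) measured 0, 0 and 0.0775 CPM for Col-0, 17.0, 4.52 and 2.85 for cat2, 0.204, 5.88 and 7.91 for shr and 2.17, 3.33 and 1.48 for cat2shr at 0 h. After stress it stood at 0.590, 1.55 and 0.602 CPM for Col-0, 35.0, 39.5 and 35.7 for cat2, 0.521, 0.789 and 0.443 for shr and 2.62, 3.38 and 3.97 for cat2shr. Fitted on the shr libraries alone, neither fall was called (adjusted p = 0.0795 for GSTU3 and 0.105 for GSTU9). Without shr replicate 1 at 0 h, 16 members were called in shr in place of 15, 6 higher and 10 lower, and with cat2shr replicate 1 at 0 h left out as well, 17, 6 higher and 11 lower. GSTF4, called lower in shr (log2 -0.58 with SE 0.20, adjusted p = 0.0253), was not called without any one of 4 libraries (highest adjusted p = 0.136).

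In cat2shr, stress raised 14 of 25 tau and 5 of 11 phi genes, and 4 tau and 2 phi genes fell, where 32.7% of all genes rose and 31.7% fell. The median log2 change was 1.13 over the tau genes, 0.58 over the phi genes and 0.00 over all genes. GSTU19 had the smallest adjusted p (log2 2.47 with SE 0.24, adjusted p = 5.75e-08), followed by GSTU11 (log2 6.14 with SE 0.63, adjusted p = 3.26e-07). GSTF8 (log2 2.13 with SE 0.25, adjusted p = 5.08e-07) and GSTF3 (log2 3.20 with SE 0.37, adjusted p = 6.75e-07) led the phi genes that rose. GSTU22 (log2 2.90 with SE 0.49, adjusted p = 4.03e-05) and GSTU25 (log2 3.60 with SE 0.69, adjusted p = 0.000173), which were not called in Col-0 or shr, rose here as in cat2. GSTU20 (log2 -2.04 with SE 0.25, adjusted p = 1.01e-06), GSTU26 (log2 -1.50 with SE 0.18, adjusted p = 5.88e-07), GSTF11 (log2 -2.82 with SE 0.49, adjusted p = 5.02e-05) and GSTF12 (log2 -2.96 with SE 0.70, adjusted p = 0.0012) fell. The rise of GSTU8 (log2 1.13 with SE 0.45, adjusted p = 0.0336) was not called without any one of 5 libraries (highest adjusted p = 0.154).

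Read across the 4 genotypes, GSTU1, GSTU2, GSTU7, GSTU16, GSTF2 and GSTF3 rose under stress in each. GSTU18, GSTU20, GSTU26, GSTU27 and GSTF11 fell in each. GSTU4, GSTU8, GSTU11, GSTU13, GSTU19, GSTU24, GSTF6, GSTF7 and GSTF8 rose in all but shr. At 0 h, shr was called higher than Col-0 for each of them. So was cat2 for some of them, among these GSTU19, GSTU24, GSTF6, GSTF7 and GSTF8, and they still rose in cat2. The part of the 0 h level in these responses was not tested. GSTU10, GSTU22 and GSTU25 rose in cat2 and cat2shr. GSTU17, known as ERD9 and linked to light and drought responses, was called lower in Col-0 (log2 -1.22 with SE 0.45, adjusted p = 0.0274) and higher in cat2 (log2 1.54 with SE 0.41, adjusted p = 0.00225). GSTU6 and GSTF14 were not called in any genotype.

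The members not listed by library are given by their range over the 24 libraries, as CPM with no correction for length. GSTU13 lay between 45.7 and 149.7 CPM and GSTF10 between 142 and 492 CPM. GSTU18 lay between 13.9 and 51.6 CPM, GSTU27 between 7.99 and 45.9 CPM and GSTU17 between 2.93 and 52.6 CPM. The libraries of GSTU18 and GSTU27 were lowest at 24 h in cat2 or cat2shr, and those of GSTU17 in Col-0 at 24 h. GSTU8 lay between 0.210 and 67.1 CPM, and its widest gap was between Col-0 at 0 h and stressed cat2 and cat2shr. Few counts stood behind GSTU6, between 0.486 and 6.33 CPM, GSTU12, between 0 and 2.25 CPM, and GSTF14, between 0.0343 and 0.590 CPM.

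Before stress, cat2 and shr each already had more transcript of many members than Col-0. In cat2, 13 of 25 tau genes were higher and 3 lower, and 6 of 11 phi genes were higher and 1 lower, where 11.5% of all genes were higher and 11.8% lower. GSTF6 (log2 3.54 with SE 0.38, adjusted p = 6.74e-06), GSTF7 (log2 3.72 with SE 0.46, adjusted p = 3.17e-05), GSTU1 (log2 4.84 with SE 0.58, adjusted p = 2.34e-05) and GSTU24 (log2 5.36 with SE 0.76, adjusted p = 0.000106) had the smallest adjusted p. GSTU25 was higher too (log2 6.40 with SE 1.17, adjusted p = 0.000894), and GSTU5 was higher by a smaller step at a high level (log2 1.49 with SE 0.22, adjusted p = 0.000138). GSTU19 (log2 0.72 with SE 0.23, adjusted p = 0.0289) was not called without any one of 4 libraries (highest adjusted p = 0.0846). The lower members were GSTU18, GSTU23, GSTU26 and GSTF4, with log2 differences of -0.46, -0.75, -0.68 and -0.90. GSTU18 and GSTU23 were each lost without any one of 4 libraries (highest adjusted p = 0.131 and 0.127), and GSTU26 without Col-0 replicate 2 at 0 h (0.0503).

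In shr at 0 h, 16 of 25 tau genes were higher than in Col-0 and the other 9 were not called, and 7 of 11 phi genes were higher and 1 lower. Over all genes, 21.3% were higher and 24.1% lower. GSTF6 (log2 4.90 with SE 0.39, adjusted p = 4.22e-08), GSTF7 (log2 5.22 with SE 0.49, adjusted p = 2.87e-07), GSTF10 (log2 1.41 with SE 0.14, adjusted p = 3.54e-07) and GSTF2 (log2 3.44 with SE 0.35, adjusted p = 5.83e-07) were the phi members with the smallest adjusted p. GSTU4 (log2 7.59 with SE 0.89, adjusted p = 3.84e-06), GSTU8 (log2 5.17 with SE 0.71, adjusted p = 2.01e-05) and GSTU24 (log2 4.72 with SE 0.75, adjusted p = 8.39e-05) were higher among the tau members. GSTF12 was higher (log2 2.68 with SE 0.57, adjusted p = 0.000968) and GSTF11 lower (log2 -1.42 with SE 0.37, adjusted p = 0.00452). Without shr replicate 1 at 0 h, 27 members were called in place of 24, 25 higher and 2 lower, and with cat2shr replicate 1 at 0 h left out as well, 28, 25 higher and 3 lower. GSTU6 (log2 1.66 with SE 0.55, adjusted p = 0.0186) was lost without any one of 3 libraries, with an adjusted p of 0.802 without shr replicate 2, and GSTU25 (log2 3.95 with SE 1.39, adjusted p = 0.0277) was lost without any one of 4 libraries (highest adjusted p = 0.118).

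At 0 h the double mutant was called different from cat2 in 13 of 36 tested members and from shr in 2. Over all genes, too, more were called against cat2 than against shr. Against cat2, 5 tau and 5 phi genes were higher and 2 tau and 1 phi gene lower, where 17.2% of all genes were higher and 17.8% lower. GSTF2 (log2 1.76 with SE 0.33, adjusted p = 0.00048), GSTF10 (log2 0.69 with SE 0.14, adjusted p = 0.000988) and GSTF6 (log2 1.50 with SE 0.33, adjusted p = 0.00203) were higher, and GSTU5 (log2 -1.35 with SE 0.22, adjusted p = 0.00015) and GSTF11 (log2 -2.17 with SE 0.38, adjusted p = 0.000277) lower. Fitted on cat2 and cat2shr libraries alone, 8 members were called in place of 13, also 8 without cat2shr replicate 2 at 0 h, 12 without replicate 1 and 13 without replicate 3. Against shr, GSTF4 (log2 -0.82 with SE 0.20, adjusted p = 0.0327) and GSTF12 (log2 -2.39 with SE 0.56, adjusted p = 0.0277) were lower and no other member was called, where 1.44% of all genes were higher and 1.59% lower. At an unadjusted p under 0.05, 11 tau and 2 phi genes differed, where 19.2% of all genes did, and DESeq2 called 5 members, where it called 5.80% of all genes. Without shr replicate 1, shr replicate 2, cat2shr replicate 2 or cat2shr replicate 3, neither GSTF4 nor GSTF12 was called (highest adjusted p = 0.121 and 0.0934).

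**Figure D4:**
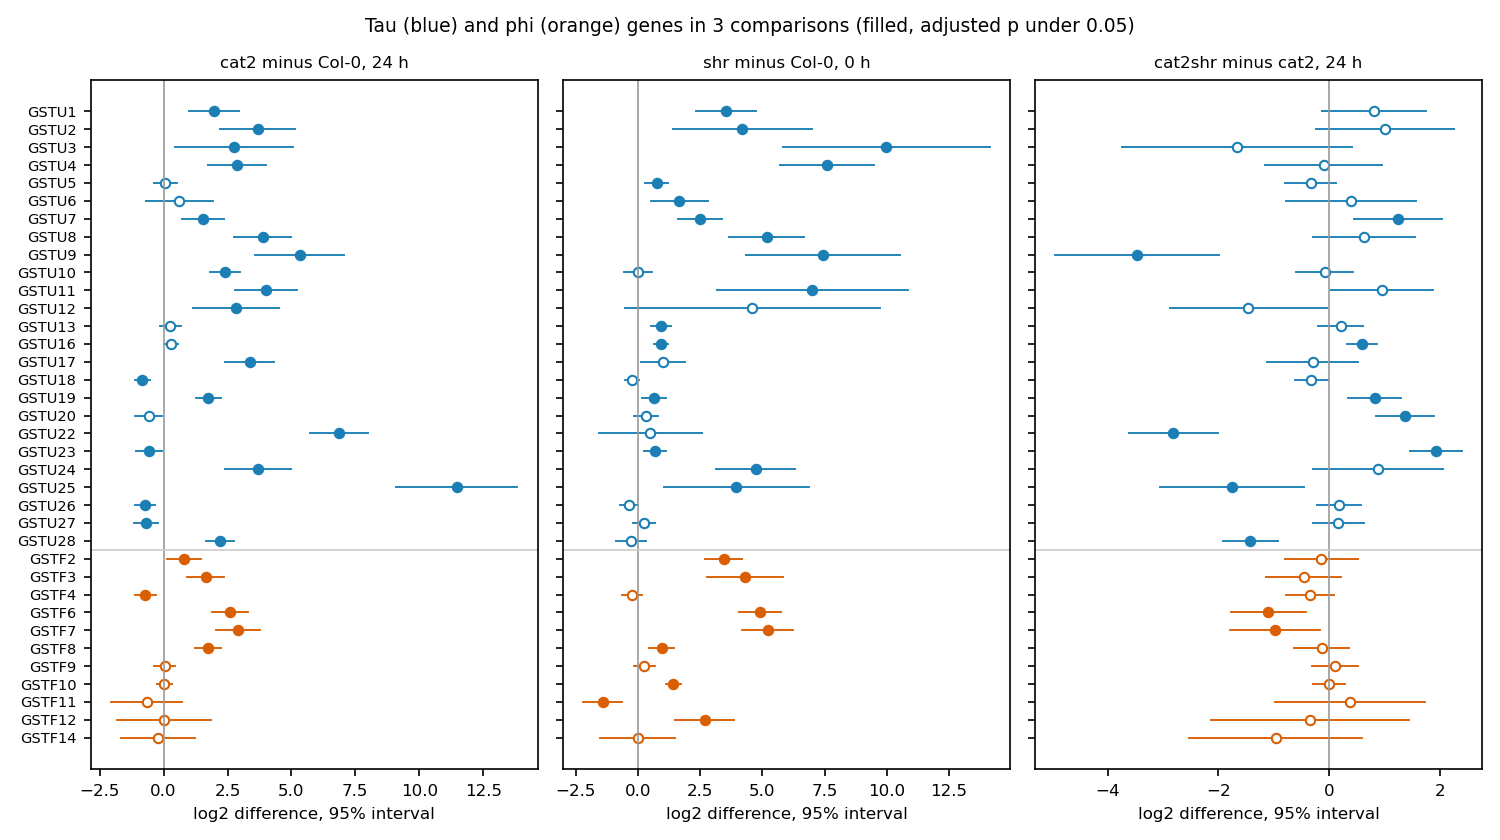
Log2 differences with 95% intervals for the 36 genes in 3 comparisons, tau in blue and phi in orange, with filled circles for adjusted p under 0.05. In cat2shr against cat2 at 24 h, GSTU9, GSTU22, GSTU25 and GSTU28 lie below 0 while GSTU7, GSTU16, GSTU19, GSTU20 and GSTU23 lie above it.

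After 24 h of stress, cat2 had higher levels than Col-0 for 16 of 25 tau and 5 of 11 phi genes and lower levels for 4 tau and 1 phi gene, where 31.4% of all genes were higher and 32.7% lower. The median log2 difference was 2.20 over the tau genes, 0.04 over the phi genes and -0.03 over all genes. GSTU25 went from at most 0.387 CPM in Col-0 to at least 350.0 CPM in cat2 (log2 11.46 with SE 1.13, adjusted p = 9.26e-08). GSTU22 (log2 6.86 with SE 0.55, adjusted p = 3.09e-09), GSTU9 (log2 5.32 with SE 0.83, adjusted p = 2.12e-05), GSTU11 (log2 4.02 with SE 0.57, adjusted p = 1.14e-05) and GSTU8 (log2 3.87 with SE 0.53, adjusted p = 5.51e-06) were higher as well. Among the phi genes, GSTF7 (log2 2.91 with SE 0.42, adjusted p = 8.37e-06), GSTF6 (log2 2.61 with SE 0.34, adjusted p = 2.6e-06) and GSTF8 (log2 1.75 with SE 0.24, adjusted p = 4.56e-06) were higher. GSTF2, abundant in both, was higher by a small step (log2 0.79 with SE 0.32, adjusted p = 0.036) that was lost without any one of 4 libraries (highest adjusted p = 0.161).

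GSTU10 and GSTU28 are low genes that stood out in the same comparison. GSTU10 (AT1G74590) measured 6.20, 5.40 and 4.77 CPM for Col-0, 5.63, 7.89 and 5.15 for cat2, 3.94, 5.65 and 6.70 for shr and 9.08, 5.40 and 5.18 for cat2shr at 0 h. The 24 h libraries had 3.69, 3.72 and 3.49 CPM for Col-0, 18.4, 26.9 and 11.9 for cat2, 4.75, 3.91 and 4.87 for shr and 17.8, 21.1 and 15.1 for cat2shr. Stressed cat2 exceeded stressed Col-0 (log2 2.39 with SE 0.28, adjusted p = 4.42e-07). GSTU28 (AT1G53680) measured 0.743, 0.491 and 0.543 CPM for Col-0, 0.872, 1.01 and 0.895 for cat2, 0.441, 0.625 and 0.386 for shr and 0.649, 0.507 and 0.927 for cat2shr at 0 h. Levels after 24 h were 0.516, 0.542 and 0.361 CPM for Col-0, 2.00, 2.90 and 1.68 for cat2, 0.619, 0.617 and 0.601 for shr and 0.767, 0.735 and 0.938 for cat2shr. It too was higher in cat2 (log2 2.20 with SE 0.27, adjusted p = 6.23e-07), and its cat2shr libraries at 24 h stayed within the range of the groups at 0 h.

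Between stressed cat2shr and stressed cat2, members were called in both directions, in each less often than genes at large in the fit over all libraries. In cat2shr against cat2 at 24 h, 5 tau genes were higher, and 4 tau and 2 phi genes were lower, where 27.0% of all genes were higher and 28.1% lower. The lower genes were GSTU22 (log2 -2.82 with SE 0.38, adjusted p = 5.08e-06), GSTU9 (log2 -3.47 with SE 0.70, adjusted p = 0.000454), GSTU28 (log2 -1.42 with SE 0.24, adjusted p = 5.39e-05), GSTU25 (log2 -1.76 with SE 0.62, adjusted p = 0.0222), GSTF6 (log2 -1.10 with SE 0.32, adjusted p = 0.00766) and GSTF7 (log2 -0.97 with SE 0.39, adjusted p = 0.0418). The higher genes were GSTU23 (log2 1.94 with SE 0.22, adjusted p = 4.91e-07), GSTU20 (log2 1.38 with SE 0.25, adjusted p = 0.000144), GSTU16 (log2 0.60 with SE 0.13, adjusted p = 0.000676), GSTU19 (log2 0.83 with SE 0.23, adjusted p = 0.00485) and GSTU7 (log2 1.25 with SE 0.38, adjusted p = 0.00986). The libraries of cat2 and cat2shr did not overlap for any of these 11 genes. The genes were picked by the test on the same libraries, so this is no further support for them. GSTU25 was not called by DESeq2 (adjusted p = 0.0893) or without any one of 4 libraries (highest adjusted p = 0.0845), and GSTF7 was lost without any one of 5 (0.154). The median log2 difference was 0.18 over the tau genes, -0.34 over the phi genes and -0.01 over all genes. Fitted on these libraries alone, 18 members were called in place of 11, 9 higher and 9 lower, with no share over all genes counted for that fit.

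GSTU23 (AT1G78320) measured 1.55, 1.79 and 1.28 CPM for Col-0, 1.17, 0.775 and 0.799 for cat2, 2.55, 2.52 and 2.29 for shr and 1.82, 1.70 and 1.58 for cat2shr at 0 h. Under stress it reached 1.36, 1.32 and 0.843 CPM for Col-0, 0.861, 0.888 and 0.655 for cat2, 2.25, 2.85 and 2.72 for shr and 2.22, 3.71 and 3.27 for cat2shr. At 24 h the shr and cat2shr libraries all lay above those of Col-0 and cat2, while at 0 h the cat2shr libraries overlapped those of Col-0. GSTU7 (AT2G29420) measured 5.23, 6.48 and 5.58 CPM for Col-0, 27.1, 30.0 and 32.2 for cat2, 25.4, 36.3 and 35.3 for shr and 29.6, 93.8 and 59.9 for cat2shr at 0 h. At 24 h it measured 34.8, 122 and 46.9 CPM for Col-0, 200.4, 226 and 162 for cat2, 102, 99.0 and 64.8 for shr and 488, 494 and 414 for cat2shr. GSTU7 and GSTU19 were thus at their highest in stressed cat2shr, where GSTU19 alone made up 58.9% of the tau transcripts. GSTF7 (AT1G02920) measured 2.68, 2.59 and 6.12 CPM for Col-0, 43.0, 81.3 and 24.3 for cat2, 97.3, 169.9 and 154 for shr and 250.2, 146 and 101 for cat2shr at 0 h. Its values at 24 h were 97.2, 134 and 98.3 CPM for Col-0, 856, 1021 and 597 for cat2, 221, 203 and 195 for shr and 486, 445 and 327 for cat2shr.

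Against shr at 24 h, cat2shr had higher levels of 16 of 25 tau and 4 of 11 phi genes and lower levels of 4 tau and 1 phi gene, where 27.3% of all genes were higher and 27.9% lower. GSTU19 (log2 2.33 with SE 0.24, adjusted p = 3.06e-07), GSTU11 (log2 6.07 with SE 0.63, adjusted p = 7.9e-07), GSTU22 (log2 5.05 with SE 0.63, adjusted p = 2.44e-06) and GSTU25 (log2 7.08 with SE 0.88, adjusted p = 3.45e-06) were higher among the tau genes, and GSTF8 (log2 1.96 with SE 0.24, adjusted p = 2.8e-06) among the phi genes. Between shr and Col-0 at 24 h fewer members differed, 6 tau and 2 phi genes higher and 1 of each lower, where 25.8% of all genes were higher and 26.9% lower. GSTU20 (log2 1.70 with SE 0.25, adjusted p = 1.66e-05), GSTU23 (log2 1.14 with SE 0.22, adjusted p = 0.000209), GSTU17 (log2 1.84 with SE 0.45, adjusted p = 0.00221) and GSTU8 (log2 2.15 with SE 0.53, adjusted p = 0.00229) were higher, and GSTF4 (log2 -0.58 with SE 0.20, adjusted p = 0.02) and GSTU18 (log2 -0.34 with SE 0.14, adjusted p = 0.0449) lower. GSTU18 was lost without any one of the 6 libraries (highest adjusted p = 0.214) and GSTF4 without any one of 3 (0.103). With scaling by library size only, which brought the median of all genes to 0.135 log2 units in this comparison, 10 members were higher and none was lower. Leaving out single libraries gave between 6 members, without shr replicate 1 at 24 h, and 13 members, without Col-0 replicate 2 at 24 h. GSTF4 (AT1G02950) measured 3.52, 3.61 and 3.41 CPM for Col-0, 2.28, 1.75 and 1.60 for cat2, 3.60, 3.10 and 2.34 for shr and 1.88, 1.45 and 1.75 for cat2shr at 0 h. After stress it stood at 3.17, 2.44 and 3.45 CPM for Col-0, 1.72, 1.37 and 2.42 for cat2, 1.86, 2.09 and 2.09 for shr and 1.30, 1.62 and 1.45 for cat2shr.

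The stress responses themselves were compared between genotypes as differences of log2 changes. These comparisons share libraries with those above. For shr against Col-0 the response was lower in 9 of 25 tau and 6 of 11 phi genes and higher in 1 of each, where 13.1% of all genes had a lower and 12.6% a higher response. GSTF6 (log2 -4.78 with SE 0.50, adjusted p = 6.12e-06), GSTF7 (log2 -4.31 with SE 0.60, adjusted p = 1e-04) and GSTF2 (log2 -3.16 with SE 0.46, adjusted p = 0.000131) had the smallest adjusted p, and GSTU4 (log2 -6.35 with SE 1.09, adjusted p = 0.000575) led the tau genes. For these genes shr began above Col-0 at 0 h and the libraries of both overlapped at 24 h for GSTF2 and GSTF6. GSTU20 (log2 1.38 with SE 0.34, adjusted p = 0.00653) and GSTF11 (log2 2.19 with SE 0.68, adjusted p = 0.023) fell less in shr. The call of GSTF11 was lost without any one of 5 of 12 libraries (highest adjusted p = 0.0715).

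For cat2 against Col-0 the response was higher in 4 tau genes and 1 phi gene and lower in 3 tau genes, where 18.8% of all genes had a higher and 19.4% a lower response. GSTU10 (log2 2.20 with SE 0.39, adjusted p = 0.000178), GSTU17 (log2 2.77 with SE 0.61, adjusted p = 0.0016), GSTU28 (log2 1.56 with SE 0.38, adjusted p = 0.00308), GSTU19 (log2 1.03 with SE 0.32, adjusted p = 0.016) and GSTF8 (log2 0.90 with SE 0.34, adjusted p = 0.0397) responded more, and GSTU5 (log2 -1.42 with SE 0.31, adjusted p = 0.00136), GSTU1 (log2 -2.89 with SE 0.72, adjusted p = 0.00409) and GSTU4 (log2 -3.32 with SE 1.21, adjusted p = 0.0375) less. GSTF8 was lost without any one of 10 of 12 libraries (highest adjusted p = 0.163), GSTU4 without any one of 7 (0.0767) and GSTU19 without any one of 5 (0.0803). With scaling by library size only, which brought the median of all genes to -0.175 log2 units here, 4 members had a higher and 6 a lower response. For cat2shr against cat2 the response was lower in 2 tau and 5 phi genes and higher in 3 tau genes and 1 phi gene, where 15.4% of all genes had a lower and 15.6% a higher response. GSTF6 (log2 -2.60 with SE 0.46, adjusted p = 0.000398), GSTF7 (log2 -2.72 with SE 0.56, adjusted p = 0.00138) and GSTF2 (log2 -1.90 with SE 0.45, adjusted p = 0.00381) responded less, and GSTU20 (log2 1.26 with SE 0.34, adjusted p = 0.00939), GSTU23 (log2 1.05 with SE 0.32, adjusted p = 0.0172), GSTU5 (log2 1.02 with SE 0.31, adjusted p = 0.0172) and GSTF11 (log2 2.55 with SE 0.75, adjusted p = 0.0148) had higher values of the response. GSTU23 was lost without cat2 replicate 1 at 0 h (adjusted p = 0.0589) and GSTF11 without cat2shr replicate 3 at 24 h (0.16).

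Many members stand side by side in the genome. In 8 tandem arrays, 23 members follow each other on 1 strand with no other annotated protein-coding gene between them, by the RefSeq annotation of TAIR10.1. The longest array holds GSTU23, GSTU22, GSTU21, GSTU20 and GSTU19 on the minus strand of chromosome 1, from 29467412 to 29488007. Its members moved apart under stress in cat2, where GSTU19 (log2 1.85) and GSTU22 (log2 3.98) rose, GSTU20 fell (log2 -3.30), GSTU23 was not called (log2 -0.20) and GSTU21 was at or near 0. In the array of GSTU24, GSTU25 and GSTU26 on the plus strand of chromosome 1, from 5869543 to 5876620, the first 2 rose in cat2 (log2 3.53 and log2 4.97) and GSTU26 fell (log2 -1.51). GSTU4, GSTU3 and GSTU2 on the minus strand of chromosome 2, from 12626478 to 12631321, all rose in cat2 (log2 4.03, log2 6.43 and log2 3.58). GSTU3 had 8 counts over the cat2 group at 0 h, so the size of its change is uncertain. GSTF9 and GSTF10, neighbours on the plus strand of chromosome 2 from 13138882 to 13142676, moved in opposite directions in Col-0 (log2 -0.52 and log2 1.01).

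Coding sequences of 2 pairs were over 90% identical, so reads could be shared between their members. GSTF2 and GSTF3 were identical at 94.5% of the bases, and GSTF6 and GSTF7 at 94.3%. The count of GSTF3 was between 0.158% and 0.958% of that of GSTF2 as group means, with libraries from 0.0633% to 1.12%. Its values are therefore uncertain, since a small share of GSTF2 reads would be enough to give them. GSTF7 measured between 62.0% and 116% of GSTF6 as group means. With each pair summed, GSTF2 rose by log2 5.08 in Col-0 and the GSTF6 pair by 5.16, and all 21 calls of GSTF2 and GSTF6 were kept. Within the tau class the highest identity was 85.5%, between GSTU1 and GSTU2. GSTU2, GSTU6, GSTU7, GSTU10, GSTF2, GSTF4, GSTF10, GSTF11 and GSTF12 overlap an annotated gene on the other strand. The library kit was stranded and the strand setting of the counting is not given in the sources used here, so their counts may hold reads of the partner. GSTU17 and GSTU18 overlap each other, and GSTU10 and GSTF8 overlap another gene, on the same strand.

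Genes around the family were counted as lists chosen for their roles. Over all genes, 29.7% rose and 29.6% fell in Col-0, 38.7% and 36.3% in cat2, 32.7% and 31.7% in cat2shr, and 20.4% and 20.9% in shr, beside which the counts of each list stand. Of 12 genes of glutathione synthesis and turnover, 11 were tested, and 4 rose and 3 fell in Col-0, 6 and 5 in cat2, 6 and 3 in cat2shr, and 0 and 4 in shr. The median log2 change of this list was -0.17 in Col-0 and 0.30 in cat2, against 0.00 and 0.03 over all genes. GSH2, glutathione synthetase (log2 0.78 with SE 0.16, adjusted p = 0.000334), and GGCT2;2, a gamma-glutamyl cyclotransferase that breaks glutathione down (log2 0.72 with SE 0.08, adjusted p = 2.35e-07), rose in Col-0. GGCT2;3, of the same family (log2 -0.73 with SE 0.08, adjusted p = 7.79e-08), and OXP1, the 5-oxoprolinase of that pathway (log2 -0.65 with SE 0.08, adjusted p = 1.75e-07), fell in cat2. Of 12 genes of other glutathione S-transferase classes, 4 rose and 2 fell in Col-0 and 4 rose and 5 fell in cat2, beside the same shares over all genes. GSTZ1, the zeta-class isomerase of tyrosine breakdown, rose in Col-0 (log2 1.81 with SE 0.18, adjusted p = 7e-08), and DHAR3, the plastid dehydroascorbate reductase, fell in Col-0 (log2 -0.55 with SE 0.08, adjusted p = 4.98e-06) and cat2 (log2 -1.32 with SE 0.08, adjusted p = 2.21e-11). GSTL2, of the lambda class, fell in cat2 (log2 -0.91 with SE 0.08, adjusted p = 1.42e-09).

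Some ABCC transporters carry glutathione conjugates into the vacuole, and not every gene of this list is known for that role. Of 6 ABCC transporters, 4 rose and 1 fell in Col-0, 5 and 1 in cat2 and in cat2shr, and 2 rose in shr. Over all genes, 29.7%, 38.7%, 32.7% and 20.4% rose in Col-0, cat2, cat2shr and shr. ABCC4 (log2 2.09 with SE 0.23, adjusted p = 3.72e-07) and ABCC2 (log2 1.25 with SE 0.21, adjusted p = 3.93e-05) rose in Col-0, and in cat2 ABCC1 rose (log2 0.99 with SE 0.10, adjusted p = 2.47e-08) and ABCC14 fell (log2 -1.27 with SE 0.15, adjusted p = 1.58e-07). Of 8 genes of TGA factors and their coactivator SCL14, 4 rose and 1 fell in Col-0, 7 and 1 in cat2, 6 and 1 in cat2shr, and 3 and 1 in shr, beside the same shares over all genes. SCL14, which acts with class II TGA factors in the xenobiotic response, rose in Col-0 (log2 0.70 with SE 0.07, adjusted p = 1.29e-07) and cat2 (log2 1.16 with SE 0.07, adjusted p = 3.72e-11). TGA5 rose in cat2 (log2 1.45 with SE 0.08, adjusted p = 1.26e-11), and TGA3 fell in Col-0 (log2 -0.91 with SE 0.12, adjusted p = 1.86e-06). The median log2 change of these 8 genes was 0.25 in Col-0 and 0.77 in cat2.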

How the data were processed

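RNA-seq libraries of 24 shoot samples were used as the gene counts that the authors deposited, which are whole numbers per locus and not normalized. The submitters' processing notes name Trim Galore 0.3.3, TopHat2 2.1.0, Subread 1.4.6, featureCounts and the build TAIR10; the strand setting is not given in the sources used here. Genes were filtered with filterByExpr, scaled by TMM and tested with the quasi-likelihood test of edgeR 4.0.16 (R 4.3.3), with 1 mean per group over all 24 libraries. P-values were adjusted by Benjamini-Hochberg over 20347 genes, and 0.05 was the threshold. An SE is the log2 value over the square root of F. Alternatives used RLE scaling, library size only, other filters, DESeq2 1.42.0, a replicate block, only the groups compared, and left-out libraries. Scripts were tested on simulated data.

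Members described by library were those highest per kb of coding length, and those with the smallest adjusted p per class, direction and comparison. GSTU3, GSTU7, GSTU9, GSTU17, GSTU25, GSTU28 and GSTF7 were singled out after their values were seen. The members and lists were chosen with earlier results of these data known. P-values measure the spread between these samples, which may be technical. The exact interval of the GSTU9 count ratio covers counting error only. Intervals drawn on log2 differences follow the SE of the edgeR test, which includes the spread between libraries. Start regions came from RefSeq TAIR10.1, and the count table holds no coordinates. Motif matches were counted on both strands with Biopython 1.88 and Python 3.11.15.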

Additional observations from a re-analysis of the deposited data

Results flagged for a closer look

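The stress response of 36 member and genotype pairs differed between genotypes at an adjusted p under 0.05 in the edgeR test of the difference itself. Values in parentheses are differences of log2 changes, first-named genotype minus second. Of these, 17 lay between shr and Col-0, among 36 tested members. Over all genes, 12.6% had a higher and 13.1% a lower response in that comparison. The response was lower in shr for GSTU1 (-2.58), GSTU3 (-11.36), GSTU4 (-6.35), GSTU7 (-2.10), GSTU8 (-3.02), GSTU9 (-8.07), GSTU11 (-8.10), GSTU13 (-0.97), GSTU24 (-3.75), GSTF2 (-3.16), GSTF3 (-4.73), GSTF6 (-4.78), GSTF7 (-4.31), GSTF8 (-1.30) and GSTF10 (-1.01). It was higher in shr for GSTU20 (1.38) and GSTF11 (2.19). GSTU3, GSTU9 and GSTU11 had 0 to 2 counts over the Col-0 group at 0 h, so their fitted differences depend on the prior count.

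Between cat2 and Col-0, 8 of 36 tested members differed, where 18.8% of all genes had a higher and 19.4% a lower response. The response was higher in cat2 for GSTU10 (2.20), GSTU17 (2.77), GSTU19 (1.03), GSTU28 (1.56) and GSTF8 (0.90) and lower for GSTU1 (-2.89), GSTU4 (-3.32) and GSTU5 (-1.42). Between cat2shr and cat2, 11 of 36 tested members differed, where 15.6% of all genes had a higher and 15.4% a lower response. The response was lower in cat2shr for GSTU3 (-6.29), GSTU28 (-1.01), GSTF2 (-1.90), GSTF3 (-1.63), GSTF6 (-2.60), GSTF7 (-2.72) and GSTF10 (-0.69) and higher for GSTU5 (1.02), GSTU20 (1.26), GSTU23 (1.05) and GSTF11 (2.55). Beside these values, the level of GSTU3 at 0 h was 0.034 CPM in shr replicate 1 and 0.03 CPM in cat2shr replicate 3, against 21.8 and 25.7 CPM in the other shr libraries. The part of single libraries was measured by leaving each out: in cat2shr against cat2, GSTU28 was lost in 7 of 12 such fits, GSTF3 in 6 and GSTU3 in 3.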

How the results depend on the processing

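No member's called direction reversed under any alternative that was run. Of 267 calls of members over the 15 comparisons, 2 were lost with RLE scaling, 12 with library size only, 14 with no filter, 6 with DESeq2, 3 with the replicate block and 8 without shr replicate 1 and cat2shr replicate 1 at 0 h, and 20 of 260 with only the groups compared. The 5 CPM filter kept all of 238 calls of members that passed it. The rest of the 267 belong to members that it removed, so those calls could not be judged. For cat2shr against shr at 0 h, 2 members were called, against 0 with the 5 CPM filter, 5 with DESeq2, 0 with only the groups compared, 4 without both libraries named above, and 0 to 8 when single libraries were left out. With only the groups compared, cat2shr against cat2 gave 8 members at 0 h in place of 13 and 18 at 24 h in place of 11. Leaving out single libraries gave 8 to 13 for the first of these, and 15 without both libraries named above, and gave 6 to 13 members for shr against Col-0 at 24 h, where 10 were called. Library size only gave 916.8 CPM in place of 967.2 for the phi sum of Col-0 at 0 h. The cause was not tested in any of these cases, other than that the 5 CPM filter removes low genes. For the alternatives, the share of all genes called is given only for DESeq2 in cat2shr against shr at 0 h. For the others, a change in the count of members cannot be told apart from a change over all genes.

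Replicate numbers were not taken to pair the samples: correlations of same-numbered samples ran from -0.132 to 0.368 over 36 pairs, 15 were over 0.1, and in 0 of 12 comparisons were all 3 over 0.1. As a hint of pairing from the data, 16 of 24 libraries correlated best with their own number. With the replicate block, 18 members were called in shr under stress in place of 15, and the calls lost were GSTU9 in Col-0 under stress (adjusted p = 0.053), GSTU3 in cat2shr against cat2 at 0 h (0.0569) and GSTU3 in cat2 against Col-0 at 24 h (0.0503). Library size only changed the split of higher to lower calls for cat2shr against shr at 0 h from 0 and 2 to 1 and 2. With 3 libraries a group and members under 1 CPM, depth limits GSTU3, GSTU9, GSTU11 and GSTU12 in Col-0 at 0 h.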
